A study of Homo sapiens with 12 samples.

Results

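Matrix metalloproteases, the aggrecanase family member ADAMTS1 and the urokinase plasminogen activator with its receptor were examined in 2 tumour cell lines after inhibition of PTDSS1, the enzyme that makes phosphatidylserine by base exchange from phosphatidylcholine. The 9 genes, *ADAMTS1*, *MMP1*, *MMP7*, *MMP9*, *MMP10*, *MMP13*, *MMP14*, *PLAU* and *PLAUR*, were taken by name, and all 9 were found under the same Ensembl identifier in both count tables, which list 30984 genes for one line and 78691 for the other. The set was put together with the *ADAMTS1* decrease in KYSE30 already known. Values of these 9 genes in the KYSE30 comparison are therefore given as a description without a test, and tests are given for the other line and for genes outside the set. The members and the lists of related genes were chosen with earlier results of these data known, and the p-values do not allow for that choice. KYSE30 (esophageal squamous cell carcinoma) and U138MG (described as glioblastoma) cultures were each treated for 48 h with 100 nM DS55980254 (PTDSS1i) or with the vehicle DMSO, with 3 cultures in each of the 4 groups. Poly-A RNA from the 12 cultures was sequenced. No genetic change was made in any group. The labels put the KYSE30 libraries in a first batch and the U138MG libraries in another, so line and batch cannot be told apart, whereas PTDSS1i and DMSO shared a batch within each line.

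Urokinase (PLAU) is a secreted serine protease that binds its receptor PLAUR on the cell surface and cuts plasminogen into plasmin. Plasmin degrades fibrin and other matrix proteins and can activate several pro-MMPs, while the serpin protease nexin 1 (*SERPINE2*) can block urokinase, and the TIMP proteins block MMPs and, to differing degrees, ADAMTS proteases. MMP1 and MMP13 are secreted collagenases, MMP9 is a gelatinase, MMP10 is a stromelysin, MMP7 is a small matrilysin of epithelial cells, MMP14 is a membrane-anchored protease that activates pro-MMP2, and ADAMTS1 cleaves proteoglycans such as versican. These statements are background. RNA levels were measured here, not protein or protease activity.

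Library totals lay between 18800932 and 26514658 counts, and replicate libraries of each group differed beyond sampling noise. The libraries labelled U138MG did not carry the RNA profile of a glioblastoma line. Over their DMSO libraries, the epithelial genes *KRT15*, *KRT5*, *CDH1*, *TP63* and *EPCAM* averaged 4861, 1469.5, 463, 276 and 248 CPM (counts scaled to the library total, a rate that compares libraries of unequal depth). *VIM*, *GFAP* and *NES* averaged 0.208, 2.36 and 0.557 CPM. Of 10 squamous epithelial markers, 8 reached a mean of 1 CPM in DMSO, and the summed level ran from 7423 to 8280 CPM. The 10 glial and glioblastoma markers summed to 10.2 to 10.5 CPM, with *S100B* and *OLIG2* at 0. Of 10 mesenchymal markers 5 reached 1 CPM, mainly through *SPARC* at 713 CPM. These libraries are called the U138MG-labelled libraries below, and a result in them is a result in the cells that gave these libraries. In KYSE30, 8 of 10 squamous markers reached 1 CPM in DMSO, with a summed level of 1148 to 1176 CPM, although *KRT5* was at 0.0643 CPM. With PTDSS1i the summed epithelial level was 1709 to 1716 CPM in KYSE30, where 7 of 9 tested markers rose and 1 fell. In the U138MG-labelled libraries it was 3435 to 3688 CPM, with *KRT15* down to a mean of 458 CPM and *KRT5* to 526, but 5 of 9 tested markers rose there, among them *SFN* (4.18-fold), *KRT17* (2.57-fold) and *EPCAM* (1.55-fold), and 4 fell. The 10 mesenchymal markers summed to 843.6 to 875.4 CPM in U138MG-labelled DMSO libraries and to 449.8 to 464.5 CPM after PTDSS1i, and in KYSE30 to 110.8 to 161.8 CPM and 97.4 to 100.7 CPM. Their members were mixed as well. Of 8 tested in KYSE30 4 rose, among them *VIM* (6.61-fold) and *COL1A1* (1.72-fold), and 3 fell, among them *FN1*, from a mean of 98.3 to 37.4 CPM. Of 5 tested in the U138MG-labelled libraries 1 rose and 3 fell. Of 8 leukocyte markers, 2 of 3 tested rose in the U138MG-labelled libraries, but *CD14* reached the filter on low counts only through its PTDSS1i libraries. Beside these marker counts, 30.1% of all tested genes rose and 32.0% fell in KYSE30, and 33.9% and 33.6% in the U138MG-labelled libraries. *CD68*, a lysosomal protein gene that is not specific to leukocytes, went from 25.3 to 31.3 CPM up to 98.5 to 106 CPM (4.00-fold), and *CD14* from 0.281 to 0.470 up to 1.27 to 2.26 CPM (4.89-fold), while *PTPRC* lay at 0 to 0.0876 CPM. In KYSE30 the leukocyte markers summed to 0.593 to 1.17 CPM in DMSO and 1.65 to 1.99 CPM with PTDSS1i. The part of these marker shifts in the results on proteases was not tested. In bulk RNA, fewer cells of a type and less RNA per cell cannot be told apart, and p-values measure the spread between these cultures.

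Of the 9 genes, 5 had a promoter window in the RefSeq table for GRCh38.p14, and each window was searched over the 250 bases before the start. The sequences around the AP-1 matches are shown because AP-1 factors, the FOS and JUN family dimers, are textbook regulators of several MMP genes and their own transcripts were measured here. Capitals mark the match to TGANTCA, searched on both strands, with each sequence read 5′ to 3′ on the strand of the gene. The *MMP7* stretch lies at chr11:102530754-102530867 on the minus strand, 120 to 7 bases before the start.
MMP7: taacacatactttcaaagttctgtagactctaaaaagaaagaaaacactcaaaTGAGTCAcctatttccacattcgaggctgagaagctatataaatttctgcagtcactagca
The *MMP10* stretch lies at chr11:102780635-102780748 on the minus strand, in the same window.
MMP10: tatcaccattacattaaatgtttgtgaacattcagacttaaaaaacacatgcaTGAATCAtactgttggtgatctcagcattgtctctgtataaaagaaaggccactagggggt
The *PLAUR* stretch lies at chr19:43670339-43670365 on the minus strand, 196 to 170 bases before the start of its RefSeq window. It lies inside the annotated *PLAUR* gene (chr19:43646095-43670547), so that start is not the outermost one and longer transcripts can cover the stretch.
PLAUR: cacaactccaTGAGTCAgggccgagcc

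In *MMP7* and *MMP10* the match sat 67 to 61 bases before the start, and a TATAAA match on the gene's strand followed it 30 to 25 bases before the start of *MMP7* and 31 to 26 bases before that of *MMP10*. In *PLAUR* the AP-1 match sat further away, 186 to 180 bases before the start of the window's transcript and inside the annotated gene. The letters TGANTCA were present in 3 of the 5 windows and in 6.6% of all 35116 windows, and TATAAA was in 6.8% of all windows. The letters AGGAAG of a PEA3-type ETS motif were present in 3 of 5 windows (*MMP7*, *PLAU* and *PLAUR*), against 28.7% of all windows. TGATGNAA, searched for ATF4-C/EBP elements, was in none of the 5 windows and in 3.1% of all. A match to letters is not a binding site, and no binding was measured.

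*PLAU* was the most abundant of the 9 genes per length in all 4 groups and was higher with PTDSS1i in both lines. The gene (ENSG00000122861) lies at chr10:73909177-73917497 on the plus strand. Levels are given as CPM normalized by TMM, a scaling that sets the bulk of genes equal between libraries, and are not compared between genes. In KYSE30, *PLAU* was at 168, 150.5 and 148 normalized CPM in DMSO replicates 1 to 3 and at 349.9, 356 and 371 with PTDSS1i. The groups did not overlap, and the fitted difference was 1.21 ± 0.06 (SE) on the log2 scale, 2.31-fold. The U138MG-labelled values were 95.5, 94.4 and 87.2 in DMSO and 639, 642 and 648 with PTDSS1i. There *PLAU* rose 6.96-fold, by 2.80 ± 0.04 (SE) on the log2 scale (edgeR adjusted p = 1.14e-29). Exons of *PLAU* overlap *C10orf55* on the other strand, and whether the authors' counting used strand is not stated in the sources used here, so some of the reads could belong to either gene.

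*PLAUR*, which encodes the urokinase receptor (ENSG00000011422, chr19:43646095-43670547, minus strand), moved in the same direction as its ligand. The KYSE30 DMSO libraries held 48.0, 40.2 and 45.4 normalized CPM and the PTDSS1i libraries 119, 125 and 125. The difference was 1.47 ± 0.06 (SE) on the log2 scale, 2.76-fold, with no overlap. The receptor started lower in the U138MG-labelled libraries, at 6.24, 6.92 and 6.83 normalized CPM, and reached 39.2, 36.6 and 37.3 with PTDSS1i. This rise was 5.64-fold, 2.49 ± 0.08 (SE) on the log2 scale (edgeR adjusted p = 7.16e-21). PTDSS1i-treated U138MG-labelled cultures thus held less *PLAUR* RNA than the untreated KYSE30 cultures, 36.6 to 39.2 against 40.2 to 48.0 normalized CPM, a comparison across tables that were scaled separately. No exon of another gene overlapped *PLAUR*.

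Among all tested genes, 30.1% were higher and 32.0% lower in KYSE30 at an adjusted p under 0.05, and 33.9% were higher and 33.6% lower in the U138MG-labelled libraries, so a change as such was common. At a log2 fold change beyond 1, 6.40% were higher and 7.04% lower in KYSE30, and 8.19% and 11.6% in the U138MG-labelled libraries. *PLAU* ranked 721 from the highest log2 fold change of 16389 genes in KYSE30 and 249 of 17666 in the U138MG-labelled libraries. *PLAUR* ranked 492 and 311.

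**Figure D1:**
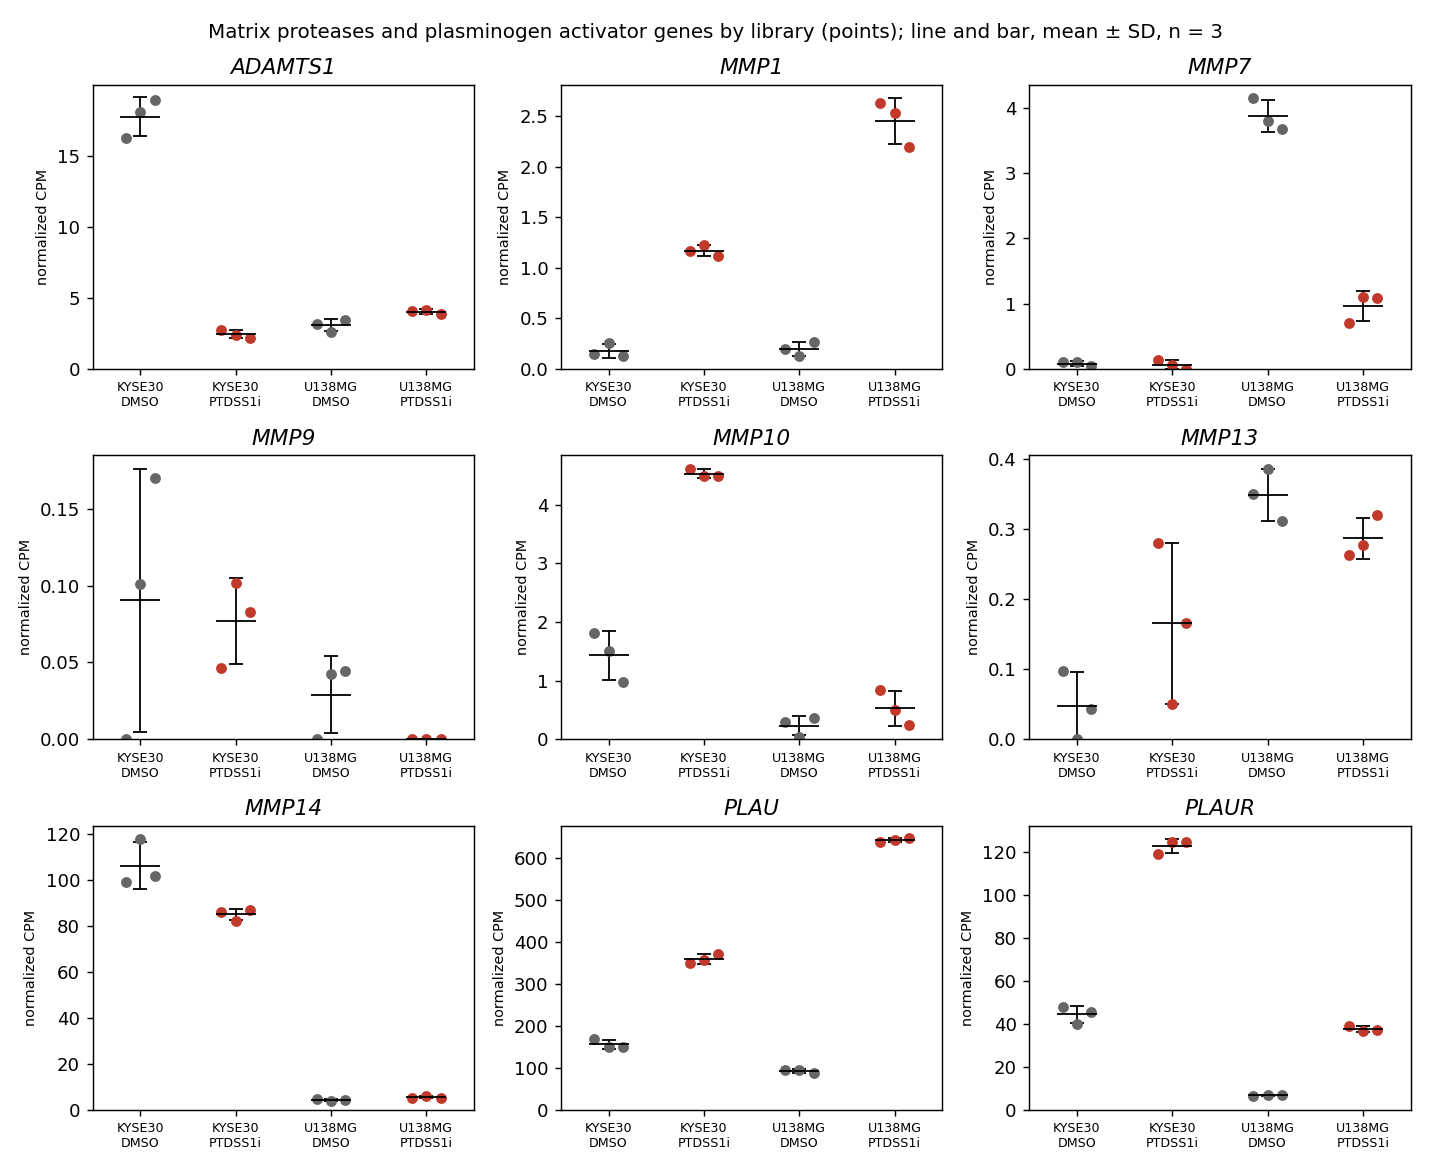
Normalized CPM (vertical axis, linear, starting at 0 and scaled for each gene) of the 9 genes in each of the 12 libraries, with grey points for DMSO, red points for PTDSS1i, and the mean ± SD of 3 libraries as line and bar. *PLAU*, *PLAUR* and *MMP1* were higher with PTDSS1i in every library of both lines, while *ADAMTS1* lay at 16.2 or more in KYSE30 DMSO, at 2.75 or less in KYSE30 with PTDSS1i, and between 2.61 and 4.14 in all U138MG-labelled libraries.

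*ADAMTS1* (ENSG00000154734, chr21:26835747-26845409, minus strand) was the member with the lowest log2 fold change in KYSE30, the value by which the set was chosen. The DMSO libraries held 16.2, 18.1 and 18.9 normalized CPM and the PTDSS1i libraries 2.75, 2.34 and 2.19. The difference was -2.87 ± 0.12 (SE) on the log2 scale, a level 7.32 times higher in DMSO, and the 10th lowest of the 16389 genes tested in that line. The gene began, in the U138MG-labelled libraries, near the level that KYSE30 reached after treatment, at 3.15, 2.61 and 3.46 normalized CPM, and stood at 4.08, 4.14 and 3.83 with PTDSS1i. These groups did not overlap either, with PTDSS1i higher, but the difference of 0.39 ± 0.18 (SE) on the log2 scale did not pass the test (edgeR adjusted p = 0.0578). The adjusted p ranged from 0.0247, with both lines fitted together, to 0.236 over the alternatives, and it was 0.0378 without DMSO replicate 3. *ADAMTS1* shared no exon with another gene.

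*MMP14*, the membrane-type protease (ENSG00000157227, chr14:22836557-22849027, plus strand), was abundant in KYSE30 and scarce in the U138MG-labelled libraries. In KYSE30 it was at 99.3, 118 and 102 normalized CPM in DMSO and at 86.2, 82.4 and 87.0 with PTDSS1i, a difference of -0.32 ± 0.06 (SE) on the log2 scale with no overlap. The U138MG-labelled DMSO libraries held 4.64, 3.76 and 4.17 normalized CPM and the PTDSS1i libraries 5.18, 5.89 and 5.35. This increase of 0.39 ± 0.16 (SE) on the log2 scale passed the test narrowly (edgeR adjusted p = 0.0310). It did not pass with scaling by library size alone (0.175), with upper-quartile scaling (0.173), with DESeq2 (0.0661), or when 1 library was left out, either DMSO replicate 2 (0.113), DMSO replicate 3 (0.0540) or the second PTDSS1i replicate (0.0878).

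*MMP1* and *MMP10*, neighbours in the MMP cluster on chromosome 11, were both low. *MMP1* (ENSG00000196611, chr11:102789920-102798160, minus strand) had 3, 5 and 3 counts in the KYSE30 DMSO libraries and 25, 24 and 27 with PTDSS1i, or 0.128 to 0.252 against 1.11 to 1.22 normalized CPM. The fitted difference was 2.71 ± 0.38 (SE) on the log2 scale, and the ratio of summed counts, set against the library sizes, was 6.75, with an exact 95% interval of 3.57 to 14.1 that covers counting error only. It had, in the U138MG-labelled libraries, 4, 3 and 6 counts in DMSO and 60, 55 and 55 with PTDSS1i, or 0.128 to 0.266 against 2.20 to 2.63 normalized CPM. The ratio was 12.4, with an interval of 7.06 to 23.8, and the fitted difference was 3.60 ± 0.36 (SE) on the log2 scale (edgeR adjusted p = 8.57e-10). *MMP1* reached the filter on low counts only through its PTDSS1i libraries in both lines, so a gene at this level could enter the test only by being higher. Its exons overlap *WTAPP1* on the other strand.

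*MMP10* (ENSG00000166670, chr11:102770503-102780628, minus strand) was at 1.81, 1.51 and 0.978 normalized CPM in KYSE30 DMSO and at 4.61, 4.49 and 4.50 with PTDSS1i. The difference was 1.68 ± 0.19 (SE) on the log2 scale, 3.19-fold, without overlap. This gene was too low in the U138MG-labelled libraries to be tested, with 6, 1 and 8 counts in DMSO and 19, 11 and 6 with PTDSS1i. The libraries overlapped there, and the ratio of summed counts was 2.28 (exact 95% interval 1.22 to 4.48, counting error only).

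*MMP7*, the matrilysin (ENSG00000137673, chr11:102520508-102530753, minus strand), was the one member that fell in the U138MG-labelled libraries. Its DMSO libraries held 4.14, 3.80 and 3.68 normalized CPM and its PTDSS1i libraries 0.702, 1.10 and 1.08, with no overlap. The difference was -2.00 ± 0.24 (SE) on the log2 scale, a level 4.01 times higher in DMSO (edgeR adjusted p = 2.09e-08). In KYSE30 it was close to undetected, with 2, 2 and 1 counts in DMSO and 3, 1 and 0 with PTDSS1i. *MMP7* and *MMP10* carry the AP-1 letters at the same distance from the start. *MMP7* was tested only in the U138MG-labelled libraries and was lower there, and *MMP10* was tested only in KYSE30 and was higher there. The part of these letters in either change was not tested.

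The remaining collagenase and gelatinase genes were near the limit of detection. *MMP9* (ENSG00000100985, chr20:46008908-46016561, plus strand, overlapping *SLC12A5-AS1*) had 0, 2 and 4 counts in KYSE30 DMSO and 1, 2 and 2 with PTDSS1i. The U138MG-labelled DMSO libraries had 0, 1 and 1 counts and the 3 PTDSS1i libraries had 0, which allows up to 3 counts, or 0.113 to 0.131 CPM, in each. *MMP13* (ENSG00000137745, chr11:102942995-102955734, minus strand) had 2, 0 and 1 counts in KYSE30 DMSO against 6, 1 and 4, and 7, 9 and 7 counts in U138MG-labelled DMSO libraries against 6, 6 and 8. No difference was detectable in these genes at this depth. In all, 6 of the 9 genes were tested in each line. In KYSE30, 4 of them were higher and 2 lower with libraries that did not overlap, where 32.1% of all tested genes were higher and 34.2% lower without overlap, 66.3% in all. Among the U138MG-labelled libraries 5 were higher and 1 lower without overlap, where 35.5% of all tested genes were higher and 35.9% lower without overlap, 71.4% in all. Both counts include *MMP1*. By the test *PLAU*, *PLAUR* and *MMP14* rose, *MMP7* fell and *ADAMTS1* did not pass, and *MMP1*, which could enter the test only by being higher, is not counted with them. Of all tested genes 67.5% were called, and nothing is read from the members' count against that share.

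**Figure D2:**
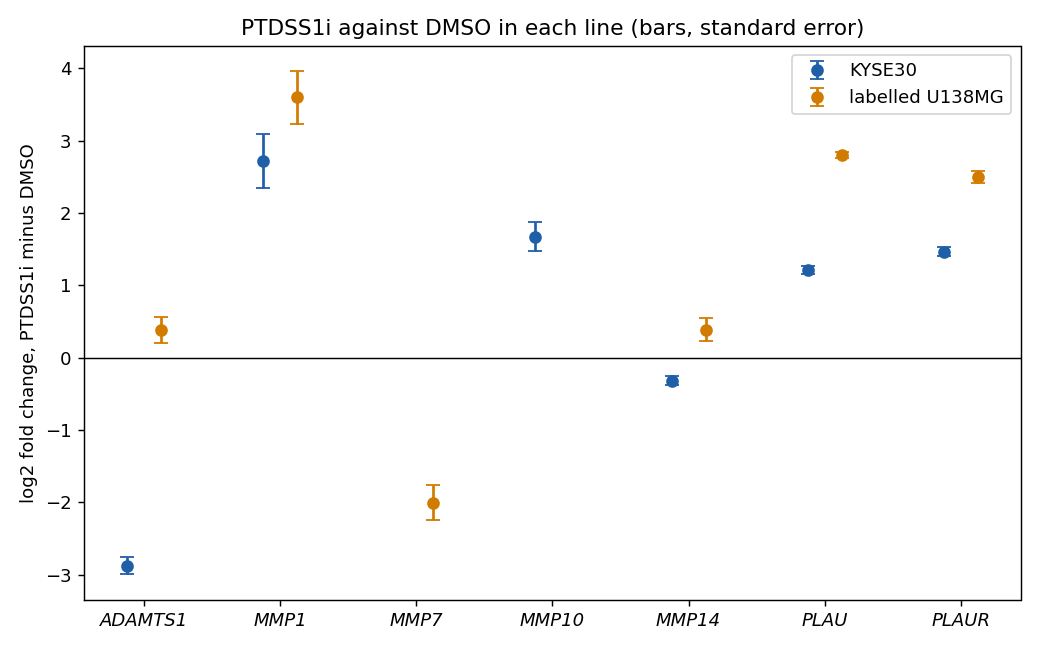
Log2 fold change of PTDSS1i minus DMSO (vertical axis) with standard errors as bars, for the members tested in each line, in blue for KYSE30 and orange for the U138MG-labelled libraries. *PLAU*, *PLAUR* and *MMP1* were above 0 in both, *ADAMTS1* and *MMP14* lay on opposite sides of 0, and *MMP7* and *MMP10* were tested in 1 line each.

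Levels were compared between genes only per length, as normalized reads per kilobase of merged exons on the CPM scale (RPKM). The 9 genes together summed to 90.1 ± 3.30 RPKM (SD, n = 3) in KYSE30 DMSO and 172.1 ± 4.36 with PTDSS1i, and to 36.2 ± 1.47 and 230.2 ± 1.26 in the U138MG-labelled libraries. *PLAU* made up 58.5% and 70.7% of that sum in KYSE30 and 86.4% and 94.7% in the U138MG-labelled libraries. In KYSE30 DMSO the order was *PLAU* at 52.7 RPKM, *MMP14* at 23.8, *PLAUR* at 9.99, *ADAMTS1* at 2.51 and *MMP10* at 0.815, and the ranges of these 5 neighbours did not overlap. The other 4 lay at or under 0.0891 RPKM with overlapping ranges. With PTDSS1i the KYSE30 order was *PLAU* at 121.7, *PLAUR* at 27.6, *MMP14* at 19.1, *MMP10* at 2.58, *MMP1* at 0.593 and *ADAMTS1* at 0.344 RPKM, without overlap between neighbours. By merged exons *PLAUR* had thus passed *MMP14*, and *ADAMTS1* had passed below *MMP10* and *MMP1*. By the longest transcript *PLAUR* and *MMP14* were already close in KYSE30 DMSO, at means of 27.7 and 28.5 RPKM. They stood at 76.5 and 22.8 with PTDSS1i by that length.

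In the U138MG-labelled DMSO libraries *PLAU* stood at 31.3 RPKM, followed by *MMP7* at 1.67, *PLAUR* at 1.50, *MMP14* at 0.939 and *ADAMTS1* at 0.435, while *MMP10*, *MMP13* and *MMP1* overlapped at 0.101 to 0.132. With PTDSS1i the order was *PLAU* at 217.9, *PLAUR* at 8.45, *MMP1* at 1.25, *MMP14* at 1.23, *ADAMTS1* at 0.569, *MMP7* at 0.414 and *MMP10* at 0.300 RPKM. The ranges of *MMP1* and *MMP14* overlapped, as did those of *MMP7* and *MMP10*. The length used matters for *PLAUR*, which has 4457 bases of merged exons and a longest transcript of 1610 bases. By the longest transcript, *PLAUR* stood above *MMP7* in the U138MG-labelled DMSO libraries, at 4.14 against 2.93 RPKM, and *MMP14* stood above *MMP1* after PTDSS1i, at 1.47 against 1.25.

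The inhibitor genes *SERPINE2*, *TIMP1* and *TIMP2* rose in both lines, and by more in the U138MG-labelled libraries. *SERPINE2*, encoding protease nexin 1, rose 2.51-fold in KYSE30 and 12.2-fold in the U138MG-labelled libraries, where it went from 16.7 to 20.8 up to 224 to 238 normalized CPM. The difference between the lines was 2.24 ± 0.16 on the log2 scale (edgeR adjusted p = 5.72e-08). *PLAT*, the tissue-type plasminogen activator, did not pass in KYSE30 (log2 fold change -0.09 ± 0.10 SE, edgeR adjusted p = 0.425) and rose 1.85-fold in the U138MG-labelled libraries (edgeR adjusted p = 3.20e-17), with a difference of 0.94 ± 0.10 between the lines (edgeR adjusted p = 1.15e-09).

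Per length, *PLAU* stood above *PLAT* in every library. The ratio of *PLAU* to *PLAT* was 21.2 ± 4.02 and 51.3 ± 1.28 in KYSE30, and 3.01 ± 0.19 and 11.3 ± 0.20 in the U138MG-labelled libraries. Ligand and receptor kept closer proportions, with *PLAU* over *PLAUR* at 5.29 ± 0.36 and 4.41 ± 0.10 in KYSE30 and at 21.0 ± 1.94 and 25.8 ± 1.03 in the U138MG-labelled libraries. These ratios are descriptions, and 3 libraries against 3 cannot give an exact two-sided permutation p under 0.1. They also depend on the length used. Merged exons and longest transcript have 2950 and 2658 bases for *PLAU*, 6618 and 3462 for *PLAT*, and 4457 and 1610 for *PLAUR*. All of these ratios would be lower by the longest transcript, while their relative change with PTDSS1i would be the same.

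**Figure D3:**
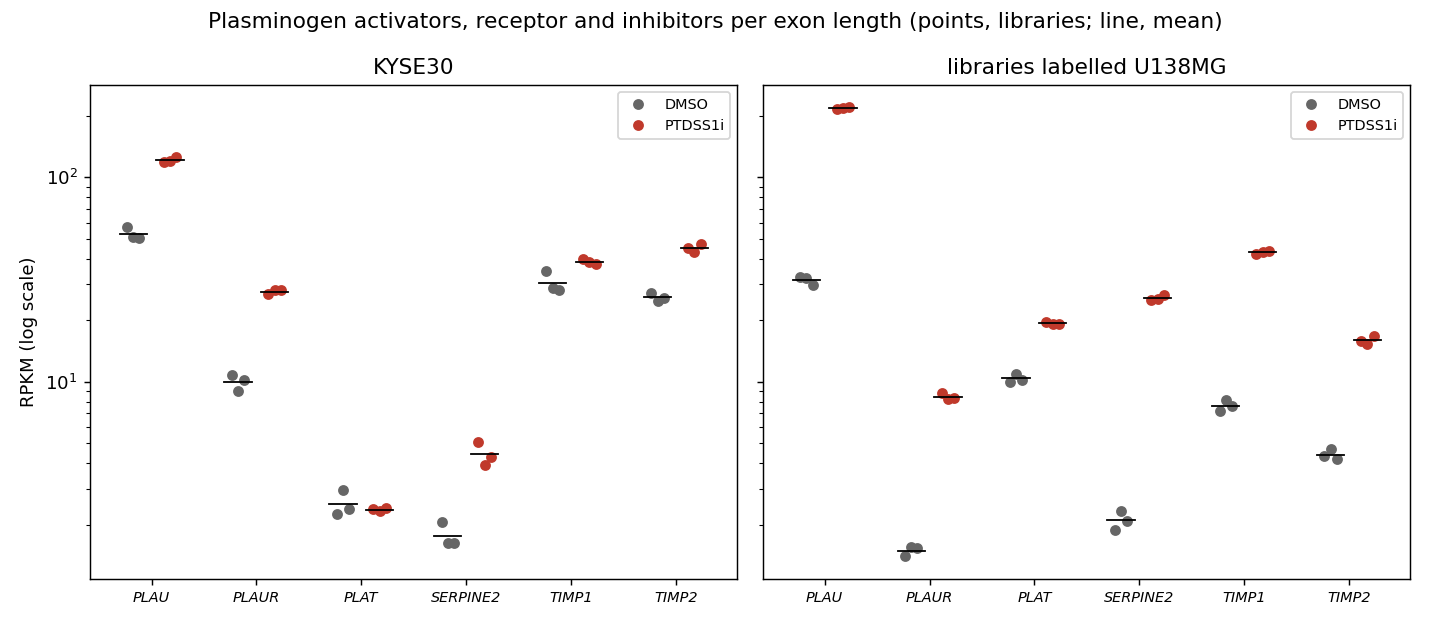
RPKM (vertical axis, log scale) of urokinase, its receptor, tissue-type plasminogen activator, the serpin *SERPINE2* and 2 TIMP genes, 1 point per library with the mean as a line, grey for DMSO and red for PTDSS1i, KYSE30 on the left and the U138MG-labelled libraries on the right. *PLAU* rose from a mean of 31.3 to 217.9 RPKM on the right, and *SERPINE2*, *TIMP1* and *TIMP2* were higher with PTDSS1i in both panels, while *PLAT* overlapped on the left.

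Among all 15 other plasminogen activation genes, 10 were tested in KYSE30, of which 7 rose and none fell, with a median log2 fold change of 0.37. Among the U138MG-labelled libraries 12 were tested, 11 rose and none fell, with a median of 0.65. The medians of all tested genes were -0.03 in both lines. Beside the counts of this list and those below, 30.1% of all tested genes rose and 32.0% fell in KYSE30. In the U138MG-labelled libraries 33.9% rose and 33.6% fell. Counts over such lists are descriptions, since some genes entered the test only through the group in which they were high.

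Of 6 metalloprotease inhibitors, 3 were tested in KYSE30 and 5 in the U138MG-labelled libraries. *TIMP1* rose from 43.2 to 53.9 up to 58.1 to 61.5 normalized CPM in KYSE30 (0.34 ± 0.07 SE on the log2 scale, edgeR adjusted p = 0.000367) and from 11.1 to 12.5 up to 65.2 to 67.0 in the U138MG-labelled libraries (2.48 ± 0.06, edgeR adjusted p = 1.52e-23). *TIMP2*, whose protein also takes part in pro-MMP2 activation by MMP14, rose 1.74-fold and 3.61-fold. The RPKM ratio of *MMP14* to *TIMP2* was 0.921 ± 0.12 (SD, n = 3) in KYSE30 DMSO and 0.423 ± 0.01 with PTDSS1i, and 0.214 ± 0.03 and 0.0771 ± 0.01 in the U138MG-labelled libraries. *TIMP3*, the matrix-bound inhibitor that acts on ADAMTS proteases as well, did not pass in KYSE30 (-0.37 ± 0.16 SE, edgeR adjusted p = 0.101) and rose by 0.43 ± 0.05 in the U138MG-labelled libraries (edgeR adjusted p = 6.29e-09). The membrane-anchored inhibitor *RECK* fell there, from 5.13 to 6.39 down to 3.91 to 4.26 normalized CPM (edgeR adjusted p = 0.00533). *TIMP4* rose 10.3-fold in the U138MG-labelled libraries, from 0.399 to 0.897 up to 5.79 to 6.49 normalized CPM (edgeR adjusted p = 6.58e-13), but it reached the filter only through the PTDSS1i libraries. The median log2 fold change of the list was 0.34 and 1.85. Exons of *TIMP2* and *TIMP4* overlap other genes.

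*MMP2*, the gelatinase that MMP14 and TIMP2 together activate, moved in opposite directions in the 2 lines. It fell in KYSE30, from 46.5, 53.8 and 48.1 normalized CPM to 17.9, 18.8 and 18.9 (log2 fold change -1.42 ± 0.07 SE, edgeR adjusted p = 1.81e-13), and it rose in the U138MG-labelled libraries, from 2.30, 2.61 and 2.35 to 10.3, 10.2 and 7.71 (1.95 ± 0.16, edgeR adjusted p = 7.82e-12). The difference between the lines was 3.33 ± 0.15 on the log2 scale (edgeR adjusted p = 8.83e-18). *MMP15*, another membrane-type protease, rose 1.18-fold and 2.88-fold (edgeR adjusted p = 0.0103 and 1.80e-21). Of 17 other MMP genes, 8 were tested in KYSE30, with 2 higher, 1 lower and a median log2 fold change of -0.10. In the U138MG-labelled libraries 6 were tested, with 5 higher and none lower and a median of 1.01. Exons of *MMP2* overlap a gene without a common name.

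Among the other ADAMTS genes that were tested, decreases prevailed in each line, but the genes tested were largely different. Of 18, 8 were tested in KYSE30, where 6 fell and 1 rose with a median log2 fold change of -1.03. In the U138MG-labelled libraries 4 were tested, of which 3 fell and 1 rose with a median of -0.82. Over all tested genes 32.0% and 33.6% fell. Only *ADAMTS13*, *ADAMTS15* and *ADAMTS17* were tested in both lines, and of these *ADAMTS15* alone was called lower in both. The other genes that fell in KYSE30, *ADAMTS3*, *ADAMTS6*, *ADAMTS7*, *ADAMTS14* and *ADAMTS20*, were too low to be tested in the U138MG-labelled libraries. Whether these genes respond differently in the lines is therefore not shown by the calls. *ADAMTS17* rose in KYSE30 and fell in the U138MG-labelled libraries, and *ADAMTS13* did not pass in KYSE30 (edgeR adjusted p = 0.255). All libraries lay above the filter level for 6 of the 8 genes and 3 of the 4. *ADAMTS15*, another proteoglycan-cleaving member, fell from 4.34 to 6.06 down to 1.43 to 2.14 normalized CPM in KYSE30 and from 7.06 to 9.29 down to 4.39 to 5.25 in the U138MG-labelled libraries (edgeR adjusted p = 1.55e-07 and 1.21e-05). The decrease was larger in KYSE30, by 0.78 ± 0.24 on the log2 scale (edgeR adjusted p = 0.00784). *ADAMTS14*, a procollagen N-propeptidase, fell by 1.03 on the log2 scale in KYSE30 (edgeR adjusted p = 2.46e-05) and was too low to be tested in the U138MG-labelled libraries. *ADAMTS16* rose 4.82-fold in the U138MG-labelled libraries, from 1.28 to 1.45 up to 6.31 to 6.89 normalized CPM (edgeR adjusted p = 6.64e-12), and was too low to be tested in KYSE30. Among 9 ADAM sheddases, which release membrane-bound ligands and receptors, 8 were tested in each line. In KYSE30 5 rose and 1 fell (median log2 fold change 0.32), and in the U138MG-labelled libraries 4 rose and 1 fell (0.35). *ADAM12* rose 2.57-fold and 3.23-fold, and the difference between the lines did not pass (0.29 ± 0.20 on the log2 scale, edgeR adjusted p = 0.240).

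Pericellular serine proteases of epithelia, with their inhibitors, formed the longest of the lists, with 20 genes. In KYSE30 14 were tested, 10 rose and 1 fell (median log2 fold change 0.70). In the U138MG-labelled libraries 15 were tested, 10 rose and 5 fell (1.27). The membrane-anchored protease *TMPRSS4*, which can activate pro-urokinase, rose from 25.3 to 28.7 up to 73.5 to 78.5 normalized CPM in KYSE30 and from 58.6 to 65.7 up to 234 to 245 in the U138MG-labelled libraries (edgeR adjusted p = 2.05e-14 and 2.99e-25). The kallikreins *KLK5* and *KLK6*, secreted proteases of squamous epithelium, rose 1.58-fold and 1.53-fold in KYSE30 and 4.00-fold and 4.39-fold in the U138MG-labelled libraries, with exons that overlap another gene. *TMPRSS11E* went the other way in the U138MG-labelled libraries, from 10.9 to 14.6 down to 1.01 to 2.02 normalized CPM (-3.08 ± 0.18 SE on the log2 scale, edgeR adjusted p = 1.51e-12), against an increase of 0.90 ± 0.25 in KYSE30 (edgeR adjusted p = 0.00332). The gene was low in KYSE30, at 0.807 to 1.52 normalized CPM in DMSO and 1.63 to 2.38 with PTDSS1i, or 73 and 140 summed counts. The difference between the lines was -4.02 ± 0.33 (edgeR adjusted p = 1.75e-11). *TMPRSS2* fell by 1.01 in the U138MG-labelled libraries (edgeR adjusted p = 6.12e-13) and did not pass in KYSE30 (-0.59 ± 0.28 SE, edgeR adjusted p = 0.0741). Of 4 proprotein convertases, which activate MMP14 and other proteases inside the cell, 2 rose and 1 fell in each line, with median log2 fold changes of 0.06 and 0.10.

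Over all 7 lists of related proteases and inhibitors, 89 genes, 29 rose and 10 fell of 55 tested in KYSE30, or 70.9% called beside 62.0% of all tested genes, with a median log2 fold change of 0.30. In the U138MG-labelled libraries 37 rose and 11 fell of 54 tested, or 88.9% beside 67.5% of all tested genes, with a median of 0.62. Of 45 related genes tested in both lines, 31 were called in both and 28 of those moved in the same direction. The matching shares over all genes tested in both lines are not given here, so nothing is read from the 31 and the 28. The difference between the lines passed for 34 of the 45. Of all genes tested for it 49.9% passed, but these include genes too low to be tested in 1 of the lines. That share is therefore not a matching one, and nothing is read from the 34 either.

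Most AP-1 factor transcripts rose with PTDSS1i in both lines. Of 7 genes, 6 rose in KYSE30 (median log2 fold change 1.24) and 7 in the U138MG-labelled libraries (1.65), beside 30.1% and 33.9% of all tested genes. The largest increase was that of *FOSL1*, which encodes FRA-1, in the U138MG-labelled libraries, from 1.30, 0.940 and 1.77 normalized CPM to 81.7, 83.6 and 77.7 (5.92 ± 0.10 SE on the log2 scale, edgeR adjusted p = 1.30e-26). In KYSE30 *FOSL1* was already at 73.7, 42.4 and 49.1 in DMSO and stood at 75.2, 75.3 and 75.4 with PTDSS1i, a difference that did not pass (0.45 ± 0.23 SE, edgeR adjusted p = 0.161). The lines differed by 5.43 ± 0.38 on the log2 scale (edgeR adjusted p = 2.26e-06). *JUN* rose 2.37-fold in KYSE30 and 13.5-fold in the U138MG-labelled libraries, and the difference was 2.47 ± 0.07 on the log2 scale (edgeR adjusted p = 2.41e-22). *FOSB* rose 5.50-fold and 9.00-fold. *FOS* rose by more in KYSE30, 2.64-fold against 1.46-fold (difference -0.90 ± 0.13 on the log2 scale, edgeR adjusted p = 1.08e-06). *JUND* rose 3.35-fold and 3.13-fold, and its difference between the lines did not pass (-0.14 ± 0.06, edgeR adjusted p = 0.0695). Whether these factors act on the protease genes was not measured.

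**Figure D4:**
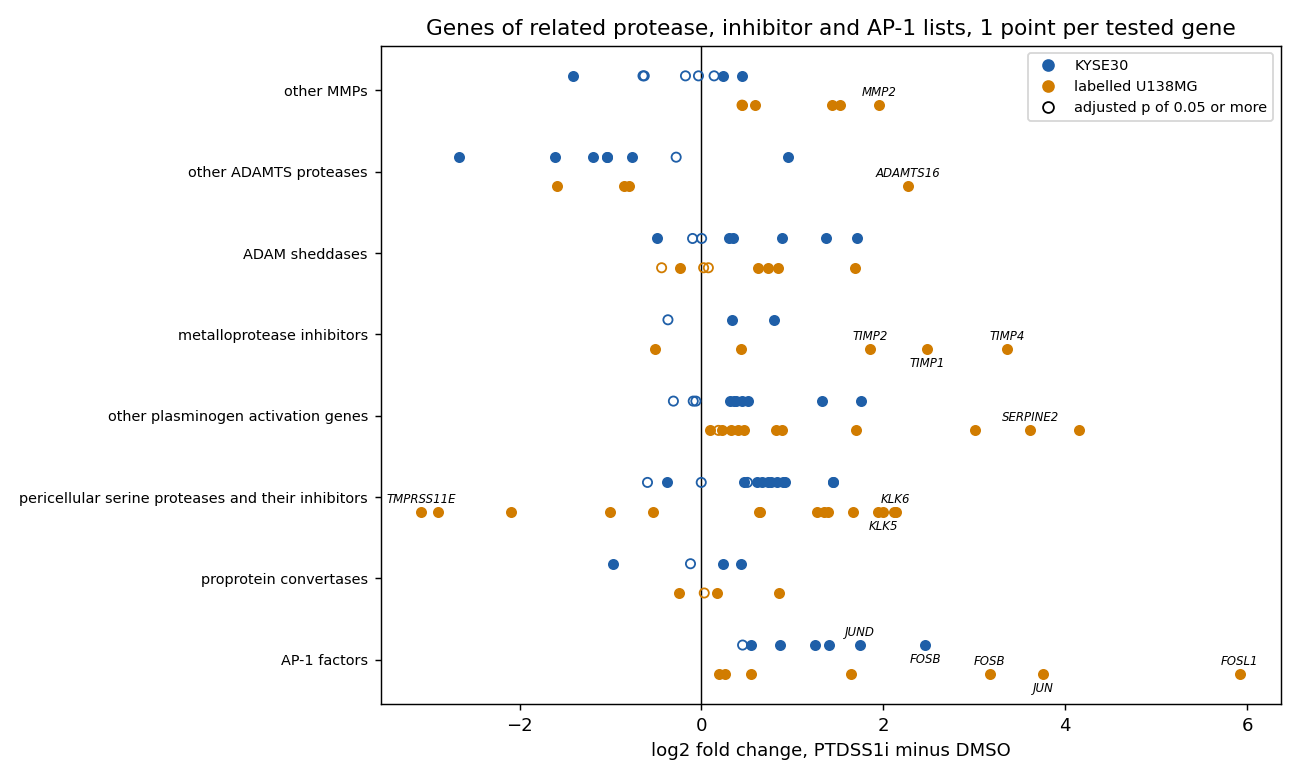
Log2 fold change of PTDSS1i minus DMSO (horizontal axis) for every tested gene of the 7 related lists and of the AP-1 factors, with 1 row per list, blue for KYSE30 and orange for the U138MG-labelled libraries, and open circles where the adjusted p was 0.05 or more. Names are printed for some of the genes in the text. *FOSL1* stands furthest to the right at 5.92, most other ADAMTS genes lie left of 0, and *TMPRSS11E* lies at -3.08 in the U138MG-labelled libraries.

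The genes whose profile was most like that of *ADAMTS1* were picked by the smallest root-mean-square difference in log2 normalized CPM over the 12 libraries, each set against the DMSO mean of its line, among 10529 candidates with a median difference of 1.45. Candidates had a mean of at least 5 normalized CPM in a group of each line. *ADAMTS1* itself was below that in the U138MG-labelled libraries, at means of 3.07 and 4.02. The closest genes were *DOK1* at 0.417, *MCM5* at 0.465, *MCM10* at 0.501, *MCM6* at 0.510 and *DTL* at 0.527. *DOK1* encodes an adaptor of tyrosine kinase signalling, the MCM genes encode DNA replication factors, and *DTL* encodes a substrate receptor of a ubiquitin ligase that acts during replication. Their log2 fold changes were between -2.23 and -2.02 in KYSE30 and between -0.30 and 0.12 in the U138MG-labelled libraries, beside -2.87 and 0.39 for *ADAMTS1*. All but *DOK1* were below 0 in the U138MG-labelled libraries, where *ADAMTS1* was above 0. The KYSE30 decrease by which the set was chosen enters this measure.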

How the data were processed

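The authors deposited unnormalized gene counts (whole reads) in 1 table per line, which holds each library separately. The submitters' processing notes name Trimmomatic, STAR, featureCounts and hg38 without versions. Which annotation was counted, and whether strand was used, is not given in the sources used here. Both tables were joined by Ensembl identifier without version. Counts were filtered by edgeR's filterByExpr (minimum count 10, minimum total 15), scaled by TMM and tested within each line by the quasi-likelihood test of edgeR 4.0.16 in R 4.3.3 (limma 3.58.1), with Benjamini-Hochberg adjustment over all tested genes and a threshold of 0.05. The difference between the lines was the interaction of line and treatment. RPKM used merged exon lengths of a GENCODE annotation on GRCh38, not known to be that of the authors. DESeq2 1.42.0 was an alternative, beside a joint fit of both lines, other scalings, filters, call rules and lengths, a replicate block and fits that leave out 1 library. The scripts were tested on simulated data. Figures were drawn in Python with matplotlib. The members and lists were chosen with earlier results of these data known. Named beyond the members were *TIMP1*, *TIMP2*, *TIMP3*, *PLAT* and *RECK* where tested and, per list, line and direction, up to 3 genes with the largest log2 fold change beyond 1, a mean of at least 5 normalized CPM in a group, and libraries that did not overlap. Not every gene that this rule selects is reported here. Depth was 18800932 to 26514658 counts per library, where 3 counts equal 0.113 to 0.160 CPM. Intervals cover counting error only.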

Additional observations from a re-analysis of the deposited data

Results flagged for a closer look

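*ADAMTS1* and *MMP14* were lower with PTDSS1i in every KYSE30 library and higher in every U138MG-labelled library. The log2 fold changes of the lines differed by 3.26 for *ADAMTS1* and by 0.71 for *MMP14*, and the difference was not tested because the set was chosen by the KYSE30 comparison. Of the 23 other named genes, 17 differed between the lines by edgeR's interaction test, beside 49.9% of all genes tested for it. Many of them were named for a large change in at least 1 line, so nothing is read from this count. The values below are log2 fold change in the U138MG-labelled libraries minus that in KYSE30. *MMP2* differed by 3.33, with opposite directions in the lines. *TMPRSS11E* differed by -4.02, with opposite directions, although it was low in KYSE30, at 2.38 normalized CPM or less. Larger increases in the U138MG-labelled libraries were found for *FOSL1* (5.43), *JUN* (2.47), *FOSB* (0.67), *SERPINE2* (2.24), *TIMP1* (2.10) and *TIMP2* (1.02). The same held for *MMP15* (1.25), *KLK6* (1.48), *KLK5* (1.30) and *TMPRSS4* (0.45). *FOS* differed by -0.90, with the larger increase in KYSE30. *ADAMTS15* differed by 0.78, with the larger decrease in KYSE30. *PLAT* (0.94) and *TIMP3* (0.76) rose in the U138MG-labelled libraries and did not pass in KYSE30. *ADAMTS16* differed by 1.94, although it was too low to be tested in KYSE30 alone. Line and batch cannot be told apart in any of these.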

How the results depend on the processing

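Among the named genes and the counts, no called value changed direction under any alternative run. The counts over the related lists fell when a log2 fold change beyond 1 was also required, to 6 higher and 6 lower in KYSE30 and to 20 higher and 5 lower in the U138MG-labelled libraries. Scaling by library size alone shifted the median log2 fold change of all genes by -0.10 in KYSE30 and by -0.15 in the U138MG-labelled libraries. The calls then split into 3932 higher and 6460 lower in KYSE30, against 4927 and 5238 with TMM, and into 4533 and 7694 in the U138MG-labelled libraries, against 5989 and 5930 with TMM. Upper-quartile scaling gave 4545 and 7691 there. The summed RPKM of the 9 genes depended on the length and the scale. With the longest transcript it was 119.1 and 238.2 in KYSE30 (DMSO and PTDSS1i) and 43.9 and 269.8 in the U138MG-labelled libraries. With CPM of the library total it was 165.7 in KYSE30 with PTDSS1i, and 38.0 and 218.5 in the U138MG-labelled libraries. Leaving out 1 library gave 3 to 5 members higher (*MMP1* included) and 1 lower in the U138MG-labelled libraries. It gave 28 to 30 related genes higher and 9 to 12 lower in KYSE30, and 35 to 38 and 11 to 12 in the U138MG-labelled libraries. *TIMP3* passed in KYSE30 without PTDSS1i replicate 1 (-0.53), with the library size alone (-0.47), without the filter (-0.38) and with the replicate block (-0.38). The *ADAMTS16* difference between the lines did not pass without KYSE30 DMSO replicate 3 (0.95), and that of *TMPRSS2* passed without KYSE30 DMSO replicate 2 (-0.65). The *JUND* difference passed under 7 alternatives, with values from -0.25 to -0.14. The cause of these shifts was not tested. PTDSS1i and DMSO libraries share replicate numbers. The deviations of same-numbered libraries correlated at 0.0204 to 0.0754 in KYSE30 and at -0.00288 to 0.0484 in the U138MG-labelled libraries. Differently numbered libraries correlated at -0.0760 to 0.00613 and at -0.0638 to 0.0559. In KYSE30 every same-numbered value was thus above the others, though all were small. Whether same-numbered libraries share more than a number was not tested. With the replicate block, 5081 genes were higher and 5377 lower in KYSE30 and 6019 and 5923 in the U138MG-labelled libraries, and 4 members were higher and 1 lower there. Below 3 counts per library no change was detectable.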
